A study of Mus musculus with 12 samples.

Results

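The interferon regulatory factors and the proteins that bind IRF2 were followed through 12 RNA sequencing libraries of mouse CD4+ T cells. The 9 genes were taken by name and found by symbol and Ensembl identifier: 7 genes of the IRF family (Irf1, Irf2, Irf4, Irf5, Irf7, Irf8 and Irf9) and the genes of 2 IRF2 binding proteins (Irf2bp1 and Irf2bp2), out of 38924 gene identifiers in the count files. All 9 passed the filter on low counts, which kept 13811 genes. T cells came from spleens of C57BL/6 WT mice and of mice labelled STING KO, which carry the goldenticket allele (STINGgt/gt), a missense mutation of Tmem173 that leaves no functional STING in any cell of the animal. Naive cells had been sorted and then expanded by anti-CD3 and anti-CD28 stimulation followed by a rest, so both genotypes and both treatments share this earlier activation. They were then kept for 16 h with the solvent DMSO or with 10-carboxymethyl-9-acridanone (CMA), a cell-permeable small molecule that activates mouse STING, giving 4 groups of 3 libraries.

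Interferon regulatory factors are transcription factors that share a DNA-binding domain which reads GAAA repeats, the core of the interferon-stimulated response element (ISRE). Some are switched on as proteins after cytosolic nucleic acid is sensed and then transcribe interferon genes, others carry the signal of the interferon receptor to DNA, and IRF4 and IRF8 mainly direct lymphoid and myeloid differentiation. STING, a membrane protein of the endoplasmic reticulum, recruits the kinase TBK1, which phosphorylates members of the family. The measurements here are of mRNA, and phosphorylation or nuclear entry of the proteins was not measured.

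Between 27414450 and 43784910 reads were counted on genes per library. The unit of level is CPM, counts scaled by the TMM method to a common library size, and changes as log2 values fitted by edgeR's quasi-likelihood test, with an adjusted p under 0.05 as the threshold. Tmem173 lay between 183 and 190 CPM in WT and between 168 and 181 CPM in STINGgt/gt T cells with DMSO. A missense allele need not alter mRNA, so this level does not check the genotype labels. Cd4 was present at 434 to 548 CPM across all libraries. With CMA in WT it rose by 0.19 on the log2 scale, whereas Cd3e (-0.66), Cd3g (-0.39), Cd3d (-0.19) and Lck (-0.17) fell, 3 further T-cell markers were not called, and the sum of the 8 went from a mean of 3111 to 2847 CPM. The summed level of 8 B-cell markers was 732 to 806 CPM (DMSO) or 840 to 930 CPM (CMA) in WT and 324 to 338 CPM (DMSO) or 342 to 354 CPM (CMA) in STINGgt/gt, and none of the markers was at 0. The summed level of 8 myeloid markers was 52.2 to 57.3, 64.4 to 68.1, 37.7 to 39.5 and 35.9 to 40.8 CPM in the same order. In these bulk libraries a change in a transcript and a change in the share of cells that carry it cannot be told apart. The libraries of a group are described as biological replicates, but the labels do not say whether they came from separate animals. The p-values therefore set each difference against the spread between these libraries, which need not be that between animals.

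The question of the first comparison was which family genes changed when STING was activated in WT T cells. With CMA, 7 of the 9 genes rose (Irf7, Irf5, Irf9, Irf1, Irf2, Irf2bp2 and Irf2bp1), 1 fell (Irf8), and Irf4 did not pass the test. Over all genes tested, 33.0% were higher and 37.4% were lower. The median log2 change of the 9 genes was 0.80, against -0.04 over all genes tested.

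**Figure D1:**
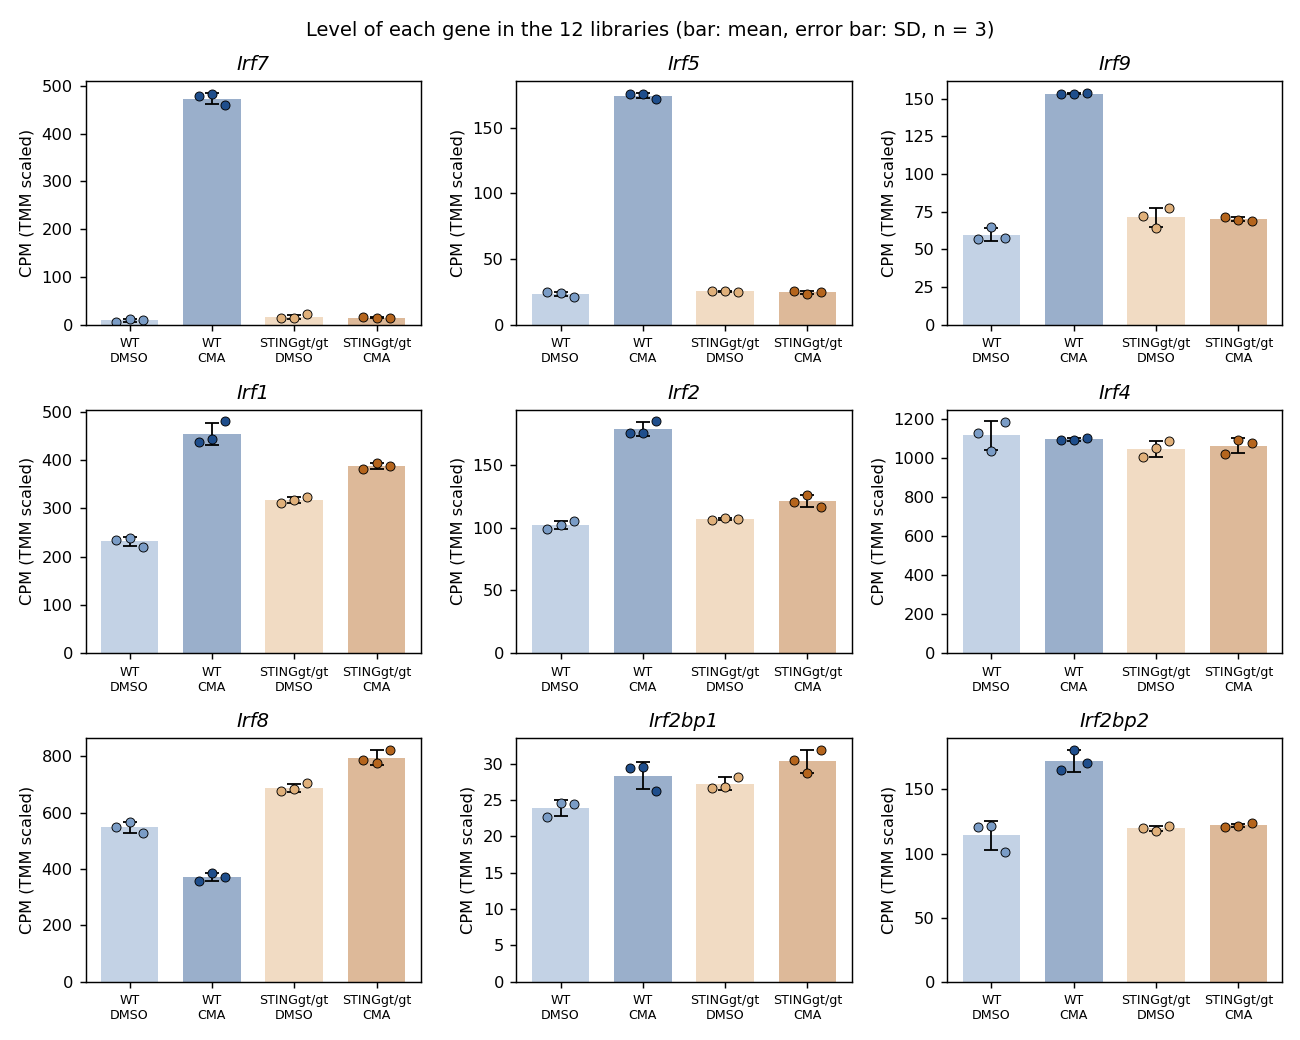
Level of each of the 9 genes in CPM (vertical axes, starting at 0) in WT and STINGgt/gt T cells with DMSO or CMA. Points are the 12 libraries, bars the mean and error bars the SD (n = 3). Irf7, Irf5 and Irf9 are high in the 3 WT libraries with CMA alone, Irf8 is lowest in those libraries, and the Irf4 bars have nearly the same height.

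Irf7 (ENSMUSG00000025498, chromosome 7, 141262706 to 141266481 of GRCm38, minus strand) encodes the factor that drives the broad set of interferon alpha genes. Its level was 6.74, 11.2 and 9.46 CPM in WT with DMSO, and 479, 482 and 459 CPM with CMA. It went from the lowest level of the family to close to that of Irf1, with a wide gap between the groups. The fitted log2 change was 5.69 (SE 0.14, adjusted p = 5.59e-15, edgeR), a 51.5-fold rise that placed it 57 among the 4560 genes that rose, ordered by size. The counts behind these values were 185 to 388 reads with DMSO and 14578 to 17169 with CMA.

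Irf5 (ENSMUSG00000029771, chromosome 6, 29526625 to 29541869, plus strand) acts downstream of MyD88 in the induction of inflammatory cytokines. It measured 24.6, 24.3 and 21.4 CPM with DMSO and 176, 176 and 172 CPM with CMA. All treated libraries thus lay far above all controls. The log2 change was 2.90 (SE 0.05, adjusted p = 1.09e-16, edgeR), which is 7.48-fold, and placed Irf5 230 among the genes that rose.

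Irf9 (ENSMUSG00000002325, chromosome 14, 55603571 to 55610030, plus strand) encodes the DNA-binding subunit of ISGF3, the complex with STAT proteins that forms below the type I interferon receptor. Its level was 57.2, 64.5 and 57.4 CPM with DMSO and 153, 153 and 154 CPM with CMA. The treated libraries were nearly identical and did not overlap with the controls. The log2 change was 1.36 (SE 0.06, adjusted p = 5.46e-12, edgeR).

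Irf1 (ENSMUSG00000018899, chromosome 11, 53770014 to 53778374, plus strand) and Irf2 (ENSMUSG00000031627, chromosome 8, 46739745 to 46847458, plus strand) bind the same sites, IRF1 mostly as an activator and IRF2 mostly as a repressor. Irf1 measured 235, 240 and 220 CPM with DMSO and 438, 443 and 481 CPM with CMA. Irf2 measured 99.1, 102 and 106 CPM with DMSO and 175, 175 and 185 CPM with CMA. Both genes thus moved the same way, with no overlap between the groups. The log2 change was 0.97 for Irf1 (SE 0.05, adjusted p = 1.20e-11) and 0.80 for Irf2 (SE 0.04, adjusted p = 6.79e-11, edgeR).

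IRF4 and IRF8 are the closest relatives within the family and bind composite sites with AP-1 or ETS factors. Irf4 (ENSMUSG00000021356, chromosome 13, 30749226 to 30766927, plus strand), which T-cell receptor signalling induces, measured 1125, 1037 and 1182 CPM with DMSO and 1090, 1091 and 1103 CPM with CMA. The groups overlapped. The log2 change was -0.03 with a 95% interval from -0.13 to 0.08 (adjusted p = 0.654, edgeR). Irf8 (ENSMUSG00000041515, chromosome 8, 120736358 to 120756694, plus strand), best known for monocyte, dendritic cell and B-cell development, measured 549, 568 and 529 CPM with DMSO and 358, 385 and 372 CPM with CMA. Every treated library lay below every control. It was the only gene of the 9 that fell, by 0.56 on the log2 scale (SE 0.04, adjusted p = 6.67e-09, edgeR).

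The IRF2 binding proteins are corepressors recruited by IRF2, and IRF2BP2 also binds NFAT and VGLL4. Irf2bp2 (ENSMUSG00000051495, chromosome 8, 126588296 to 126593986, minus strand) measured 120, 121 and 101 CPM with DMSO and 165, 181 and 170 CPM with CMA. Its log2 change was 0.59 (SE 0.06, adjusted p = 1.64e-07, edgeR). Irf2bp1 (ENSMUSG00000044030, chromosome 7, 19004065 to 19006761, plus strand) measured 22.7, 24.6 and 24.4 CPM with DMSO and 29.4, 29.5 and 26.2 CPM with CMA. The libraries did not overlap for either gene, but the rise of Irf2bp1 was the smallest of the 7, with a log2 change of 0.25 (SE 0.06, adjusted p = 0.00187, edgeR). The direction of these 8 changes was the same in all 23 alternative settings. A minimum change of 2-fold left Irf7, Irf5 and Irf9.

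Windows from 250 bases before to 50 bases after the annotated RefSeq starts (GRCm38.p6) were available for all 9 genes, 12 windows in total because Irf1, Irf8 and Irf9 have 2 each. They were searched on both strands for the ISRE core GAAANNGAA and for the GAS element TTCNNNGAA, the kind of site read by STAT dimers, because these are the elements through which interferons act on family genes. The ISRE core was found in 2 of the 12 windows, against 8.56% of 32851 windows of all genes, and the GAS letters in 4 of the 12, against 8.3% of them. No match overlapped another. The upstream stretches that hold a match are shown in the direction of the gene, with the matching letters in capitals. They are followed by 100 bases before the deposited gene boundary of Irf7, the gene with the largest change, whose window held neither motif.
Irf1, chr11:53769904-53769952, plus strand: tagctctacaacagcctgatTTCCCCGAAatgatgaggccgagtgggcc
Irf2, chr8:46739495-46739549, plus strand: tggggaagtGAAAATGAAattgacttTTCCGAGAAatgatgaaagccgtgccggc
Irf8, chr8:120736167-120736233, plus strand: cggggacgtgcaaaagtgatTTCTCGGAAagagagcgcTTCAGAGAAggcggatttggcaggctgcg
Irf2bp1, chr7:19003979-19004027, plus strand: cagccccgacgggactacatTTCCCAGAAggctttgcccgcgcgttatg
Irf2bp2, chr8:126594099-126594147, minus strand: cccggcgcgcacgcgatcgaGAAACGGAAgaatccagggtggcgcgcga
Irf7, chr7:141266482-141266581, minus strand: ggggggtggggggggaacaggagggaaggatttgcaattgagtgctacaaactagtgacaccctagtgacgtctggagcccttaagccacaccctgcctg

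In Irf1 the GAS letters span 90 to 82 bases before the start. In Irf2 the ISRE core spans 241 to 233 and the GAS letters 224 to 216 bases before the start, so that both kinds of element stand side by side. Irf8, which fell, holds 2 GAS matches, 171 to 163 and 153 to 145 bases before the start. The GAS match of Irf2bp1 lies 59 to 51 bases and the ISRE core of Irf2bp2 141 to 133 bases before the start. The windows of Irf4, Irf5, Irf7 and Irf9 held neither motif, which says only that these letters are not in these windows. A match is a description of the sequence, and binding was not measured.

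The second comparison asked which of these changes CMA made in T cells without functional STING. In STINGgt/gt T cells 2 of the 9 genes rose (Irf1 and Irf8) and none fell by edgeR, by DESeq2, by limma-voom or at an unadjusted p under 0.05 (0 of 9 each). Here 0.398% of all genes tested were higher and 0.920% were lower. Irf1 measured 311, 317 and 323 CPM with DMSO and 381, 393 and 387 CPM with CMA. Irf8 measured 676, 684 and 705 CPM with DMSO and 786, 775 and 824 CPM with CMA. The groups did not overlap for either gene. The log2 change was 0.29 for Irf1 (SE 0.05, adjusted p = 0.00383) and 0.21 for Irf8 (SE 0.04, adjusted p = 0.0242, edgeR). The Irf8 call was lost when any of the 6 STINGgt/gt libraries was left out, with adjusted p up to 0.147, while the change stayed between 0.18 and 0.22. The Irf1 call was kept when any library was left out, but both calls were lost with a block that pairs libraries by the first digit of their names, with log2 changes of 0.28 for Irf1 (adjusted p = 0.0887) and 0.22 for Irf8 (adjusted p = 0.0945, edgeR). The names of STINGgt/gt replicate 2 do not share that digit, so this block leaves its 2 libraries unpaired.

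Irf2 lay just above the threshold in STINGgt/gt T cells. It measured 106, 108 and 106 CPM with DMSO and 120, 126 and 117 CPM with CMA, without overlap. The log2 change was 0.18 (SE 0.04, adjusted p = 0.0523, edgeR), and 10 of 23 alternative settings, DESeq2 and limma among them, called it. The genes that rose most in WT gave no call here. Irf7 measured 14.7, 15 and 21.7 CPM with DMSO and 16.1, 14.2 and 13.8 CPM with CMA. These groups overlapped, the control library at 21.7 CPM lay apart from the other two, and the log2 value was -0.21 with a 95% interval from -0.51 to 0.08 (adjusted p = 0.565, edgeR). Irf5 stayed between 23.6 and 26.0 CPM and Irf9 between 64.3 and 77.2 CPM over the 6 libraries, with log2 values of -0.04 (interval -0.16 to 0.08) and -0.02 (interval -0.15 to 0.10). The intervals of Irf4 (-0.08 to 0.13) and Irf2bp2 (-0.10 to 0.15) also included 0. That of Irf2bp1 (0.03 to 0.28) did not, but its adjusted p was 0.256.

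**Figure D2:**
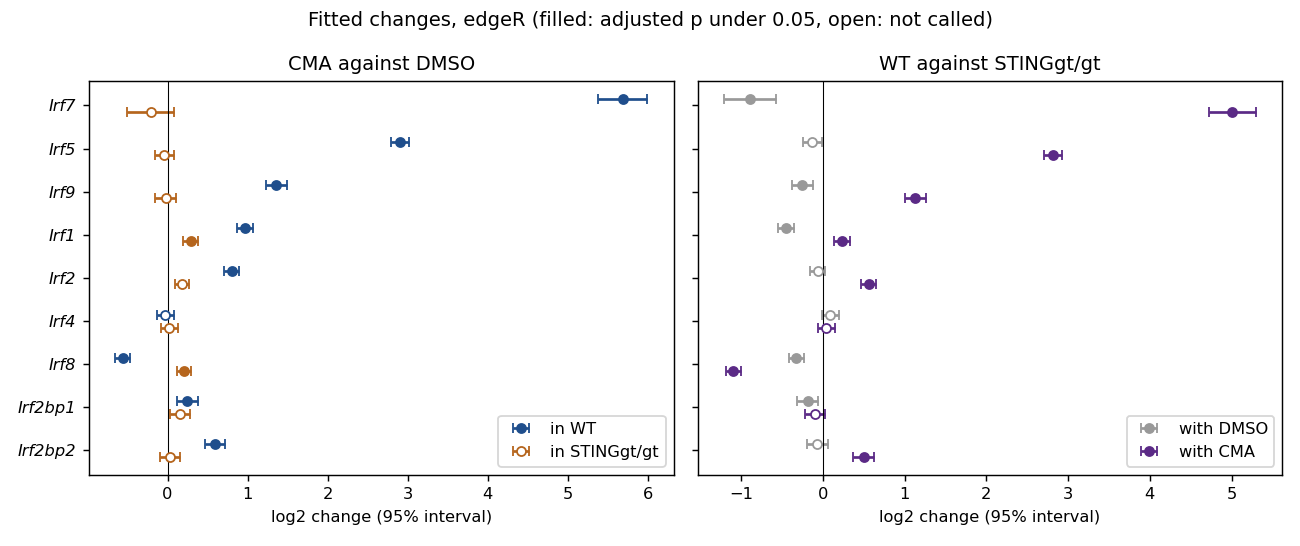
Fitted log2 changes of the 9 genes with 95% intervals, for CMA against DMSO in each genotype (left) and for WT against STINGgt/gt with each treatment (right). Filled symbols passed the threshold, open symbols did not. On the left Irf7 and Irf5 lie far to the right in WT and near 0 in STINGgt/gt, and Irf8 lies on opposite sides of 0 in the 2 genotypes.

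The difference between the 2 effects of CMA was tested directly as the effect in WT minus that in STINGgt/gt. The test called 6 of the 9 genes above 0 and 1 below 0, where 27.2% of all genes tested were called above 0 and 31.6% below. The largest difference was that of Irf7, 5.90 on the log2 scale (SE 0.20, adjusted p = 7.16e-13, edgeR). Irf5 followed with 2.94 and Irf9 with 1.39, and Irf1, Irf2 and Irf2bp2 had differences of 0.68, 0.62 and 0.57, with adjusted p between 3.93e-14 and 2.43e-05 for these 5 genes. For Irf8 the difference was -0.77 (SE 0.06, adjusted p = 2.01e-08, edgeR), as the gene fell in WT and was higher with CMA in STINGgt/gt. The difference was -0.05 for Irf4 (95% interval -0.19 to 0.10) and 0.09 for Irf2bp1 (95% interval -0.09 to 0.27), neither of which passed the test. The rise of Irf2bp1 in WT was therefore not shown to differ from its value of 0.16 in STINGgt/gt T cells.

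The third comparison set the genotypes side by side without the agonist. With DMSO, 5 of the 9 genes were lower in WT than in STINGgt/gt T cells and none was higher by edgeR, DESeq2, limma-voom or at an unadjusted p under 0.05. Of all genes tested, 19.8% were lower and 22.9% were higher. The 5 were Irf7, Irf1, Irf8, Irf9 and Irf2bp1. Irf7 was lower by a log2 value of -0.89 (SE 0.15, adjusted p = 0.000171), from 6.74 to 11.2 CPM in WT against 14.7 to 21.7 CPM in STINGgt/gt. When single libraries were left out and under the other settings this value ranged from -1.04 to -0.70. Irf1 differed by -0.45 (SE 0.05, adjusted p = 7.14e-07) and Irf8 by -0.33 (SE 0.04, adjusted p = 1.46e-05, edgeR), again with no overlap between libraries.

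The values for Irf9 and Irf2bp1 were smaller. Irf9 differed by -0.25 (SE 0.06, adjusted p = 0.00311, edgeR), but its libraries overlapped, since 1 WT library reached 64.5 CPM and 1 STINGgt/gt library measured 64.3 CPM. Irf2bp1 differed by -0.19 (SE 0.06, adjusted p = 0.0220, edgeR), and its call was lost without WT replicate 1 or without STINGgt/gt replicate 3, with adjusted p up to 0.0841. Irf5 (-0.13, adjusted p = 0.0794), Irf2 (-0.06), Irf2bp2 (-0.07) and Irf4 (0.09) did not pass the test. Irf5 was called without WT replicate 1 or 2, and Irf4 without WT replicate 2.

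Markers of other cell types moved with genotype in the opposite direction to these 5 genes, although the naive T cells had been sorted before expansion. With the solvent, 8 of 8 B-cell markers and 7 of 7 tested myeloid markers were higher in WT, and so were 5 of 6 markers of CD8 and natural killer cells and 3 of 3 tested markers of plasmacytoid dendritic cells, beside 22.9% of all genes tested. Irf8 and Irf5 are also expressed by B cells and myeloid cells, and plasmacytoid dendritic cells are rich in IRF7.

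The markers also moved with CMA in WT, and the log2 changes of those named are given in brackets. Over all genes tested 33.0% were higher and 37.4% were lower in this comparison. Of the 8 B-cell markers 6 rose and 2 were not called, while Irf8 fell. Of the 7 tested myeloid markers 3 fell, Lyz2 (-1.50), Itgam (-1.71) and Fcer1g (-0.74), and 1 rose, Cst3 (0.53). Cst3 made up most of the myeloid sum, with a mean of 38.6 CPM with DMSO and 55.7 CPM with CMA, so the higher sum with CMA ran against most of the called markers. Csf1r and Cd14 were not called and stood at most at 0.441 and 0.710 CPM with CMA. The summed level of the 6 markers of CD8 and natural killer cells was 93.9 to 111 CPM with DMSO and 49.9 to 52.9 CPM with CMA in WT, and 5 of the 6 fell, among them Gzma (-2.25) and Klrb1c (-2.40). In STINGgt/gt this sum was 32.2 to 34.0 and 31.4 to 32.6 CPM. The summed level of 5 markers of plasmacytoid dendritic cells went from between 37.3 and 38.4 CPM to between 49.7 and 53.4 CPM in WT, against 18.6 to 23.8 and 19.6 to 20.6 CPM in STINGgt/gt. Of this list, Tcf4 rose in WT (0.72, from a mean of 25.2 to 41.7 CPM), Ly6d (-0.30) and Cox6a2 (-1.32) fell, and Siglech and Klk1 had 0 reads in all 6 WT libraries. The part of other cell types in the values of the 9 genes was not tested.

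With CMA, 6 of the 9 genes were higher and 1 was lower in WT than in STINGgt/gt T cells, where 37.0% of all genes tested were higher and 36.5% were lower. The log2 values were 5.01 for Irf7, 2.82 for Irf5, 1.13 for Irf9, 0.56 for Irf2, 0.50 for Irf2bp2 and 0.23 for Irf1, with adjusted p between 1.11e-16 and 0.000227 (edgeR). Irf8 was lower by a log2 value of -1.10 (SE 0.04, adjusted p = 9.47e-13, edgeR), with 358 to 385 CPM in WT and 775 to 824 CPM in STINGgt/gt. Irf4 differed by 0.04 (95% interval -0.06 to 0.15) and Irf2bp1 by -0.10 (95% interval -0.22 to 0.03). The comparisons share groups: the WT libraries with CMA enter both this one and the first, and the DMSO libraries of WT enter both the first and the third. For Irf7, Irf9 and Irf1 the genotypes changed order, with WT lower under DMSO and higher under CMA, called in both comparisons.

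To compare the genes with one another, CPM values were divided by the length of all exons in kb. In WT with DMSO the order ran from Irf4 (227 ± 14.9 CPM per kb, SD, n = 3) through Irf8 (77.8 ± 2.74), Irf1 (58.3 ± 2.51), Irf2bp2 (22.5 ± 2.24), Irf2 (13.8 ± 0.435), Irf9 (11.1 ± 0.777), Irf2bp1 (8.74 ± 0.396) and Irf5 (8.06 ± 0.610) to Irf7 (2.42 ± 0.596). The libraries of Irf2bp1 and Irf5 overlapped, and those of the other neighbours in the order did not. The same order held in both STINGgt/gt groups, where Irf7 stood at 4.53 ± 1.04 with DMSO and 3.89 ± 0.322 with CMA. With CMA in WT, Irf4 remained first at 223 ± 1.42 CPM per kb. Irf7 moved from the last to the second place at 125 ± 3.25, next to Irf1 at 114 ± 5.82, and Irf5 to the fourth place at 60.1 ± 0.767, above Irf8 at 52.7 ± 1.95. Irf2bp1 was then last at 10.4 ± 0.692. The places depend on the length used: with the longest transcript in place of all exons, 18 of the 36 places changed, and Irf7 came next after Irf1 in WT with CMA.

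**Figure D3:**
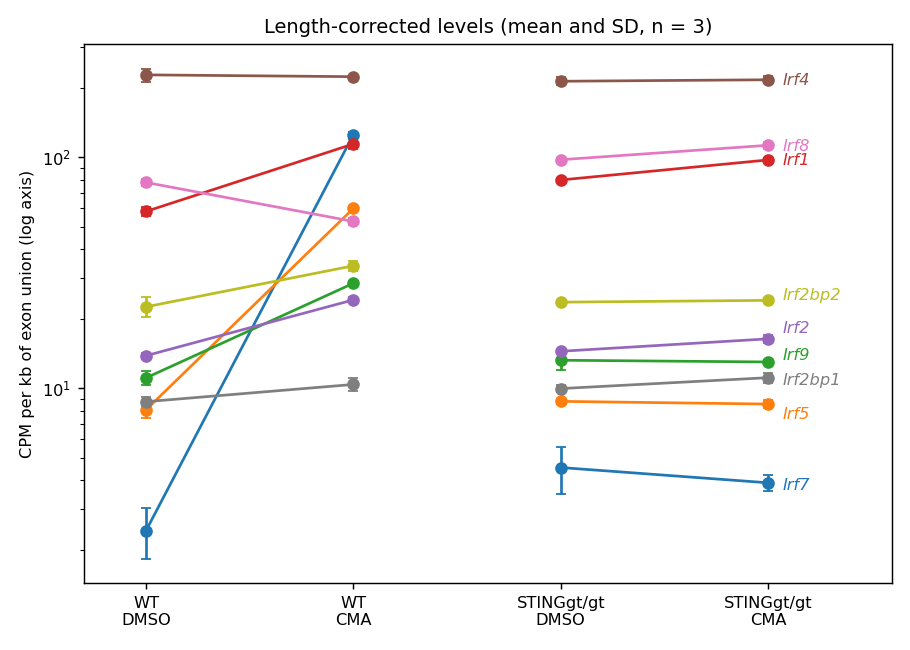
Level of the 9 genes in CPM per kb of all exons (log axis) in the 4 groups. Points are means and error bars the SD (n = 3), and lines join DMSO and CMA within a genotype. The Irf7 line climbs from the bottom to the second place in WT and stays at the bottom in STINGgt/gt.

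Ratios of genes with related roles were taken within each library, where scaling cancels. The ratio of Irf4 to Irf8 per kb was 2.95, 2.63 and 3.21 in WT with DMSO and reached 4.38, 4.07 and 4.26 after CMA treatment. For STINGgt/gt T cells it was 2.13, 2.21 and 2.22 with DMSO and 1.86, 2.03 and 1.88 with CMA. The size of these ratios depends on the length used, which cancels between groups: per kb of the longest transcript, Irf4 and Irf8 had means of 234 and 158 CPM in WT with DMSO, and of 223 and 229 CPM in STINGgt/gt with CMA. With either length the ratio went up with CMA in WT and down in STINGgt/gt, with Irf4 itself giving no call in either. The ratio of Irf7 to Irf9 went from 0.217 ± 0.0429 to 4.41 ± 0.130 in WT and was 0.341 ± 0.0549 and 0.300 ± 0.0195 in STINGgt/gt (SD, n = 3). The ratio of the activator Irf1 to the repressor Irf2 changed least of the 3 in WT, from 4.22 ± 0.289 to 4.73 ± 0.0970, and went from 5.52 ± 0.107 to 5.96 ± 0.194 in STINGgt/gt. The libraries of the treatments did not overlap in either genotype for this ratio. With 3 against 3 libraries an exact permutation test cannot go below p = 0.1, so these ratios are given as values.

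**Figure D4:**
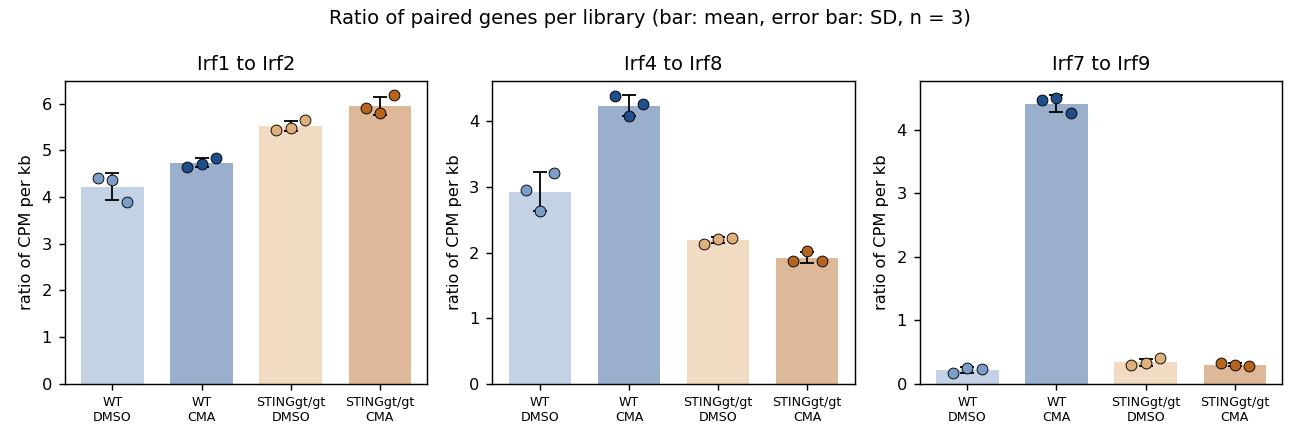
Ratio of Irf1 to Irf2, Irf4 to Irf8 and Irf7 to Irf9 in CPM per kb (vertical axes from 0) in the 4 groups. Points are libraries, bars means and error bars the SD (n = 3). Irf4 to Irf8 is highest in WT with CMA, near 4.24, and Irf7 to Irf9 exceeds 4 only there.

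Several of the 9 genes share exonic sequence with a neighbour, and the strand setting of the counting is not given in the sources used here. Irf7 overlaps Phrf1 and Irf5 overlaps Tnpo3, both on the opposite strand. In WT, Phrf1 measured 120 to 123 CPM with DMSO and 129 to 136 CPM with CMA, and Tnpo3 185 to 209 and 164 to 167 CPM. The log2 change with CMA in WT was 0.12 for Phrf1 (adjusted p = 0.0144) and -0.26 for Tnpo3 (adjusted p = 5.48e-05, edgeR). The part of these neighbours in the reads of Irf7 and Irf5 was not tested. Rnf31, a subunit of the linear ubiquitin ligase, lies on the same strand as Irf9 and shares exons with it. It rose as well, from 72.6 to 82.6 CPM with DMSO to 112 to 115 CPM with CMA (log2 change 0.56, adjusted p = 1.72e-08, edgeR), so a part of the reads of this pair may not be assigned with certainty. The transcripts opposite to Irf1 and Irf2bp2 had at most 0.0630 CPM, and the gene that overlaps Irf8 had 0 reads.

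Genes that work with the family were counted from lists chosen with earlier results of these data known. Of 10 known targets of ISGF3, all 10 rose in WT with CMA, where 33.0% of all genes tested were higher and 37.4% were lower, with a median log2 change of 4.60 against -0.04 over all genes tested. Rsad2 and Ifit3, antiviral effectors, changed by 7.37 and 7.22, and Eif2ak2, the RNA-dependent kinase, and Ddx58, which encodes RIG-I, by 2.19 and 2.00. None of the 10 was called in STINGgt/gt by edgeR, DESeq2 or limma-voom, and 2 had an unadjusted p under 0.05, 1 in each direction, beside 1790 of all 13811 genes tested. Of 10 known targets of IRF1, 8 rose and 1 fell in WT, with a median of 1.01. The interleukin Il15 (4.30) and the GTPase Gbp2 (1.46) changed most, Ciita fell by 0.28 on the log2 scale in edgeR and was not called by DESeq2, and Socs1 gave -0.01 with no call. Gbp2 was the single target of this list called in STINGgt/gt (0.28, adjusted p = 0.0119, edgeR), where 0.398% of all genes tested were higher and 0.920% were lower.

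Of 12 partners on DNA, 8 rose and 2 fell with CMA in WT, with a median log2 change of 0.49, beside 33.0% higher and 37.4% lower over all genes tested. None was called in STINGgt/gt by edgeR, DESeq2 or limma-voom, and 4 had an unadjusted p under 0.05, as had 1790 of all 13811 genes tested. Stat2, the ISGF3 subunit, went from 162 ± 8.78 to 639 ± 14.1 CPM (SD, n = 3), with a log2 change of 1.98. Jun, which joins BATF and IRF4 on composite sites, changed by 1.66, Ikzf1 by -0.43 and Batf3 by -0.47. Of 14 adaptors and kinases upstream of the family, 8 rose and 2 fell, with a median of 0.18, beside the same shares over all genes. The kinase gene Ikbke changed most, by 1.81, followed by the TBK1-binding Tbkbp1 with 0.65, whereas Irak4 (-0.14) and Chuk (-0.22) fell, Irak4 without a call by DESeq2 (adjusted p = 0.153). None of the 14 was called in STINGgt/gt by edgeR or limma-voom, and 1 was called by DESeq2. An unadjusted p under 0.05 was found for 1 of the 14, beside 1790 of all 13811 genes tested.

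Of 8 regulators of IRF proteins, 3 rose and 3 fell in WT, with a median of -0.05, which is close to the 33.0% higher and 37.4% lower over all genes tested. None was called in STINGgt/gt by the same tools, and 3 had an unadjusted p under 0.05, beside 1790 of all 13811 genes. Usp18, which restrains interferon receptor signalling, changed by 4.02 and the NF-κB inhibitor Tnfaip3 by 2.00. The translation repressors Eif4ebp2 and Eif4ebp1 fell by 0.29 and 0.56 on the log2 scale. Of 5 tested partners of the IRF2 binding proteins, 2 rose and 2 fell in WT, Etv6 (0.82) and Vgll4 (0.65) against Nfatc1 (-0.48) and Tead1 (-1.15), again near the shares over all genes. Tead1 lay near the floor, with means of 0.453 CPM with DMSO and 0.196 CPM with CMA in WT. Irf2bpl, a relative of the genes of the IRF2 binding proteins, fell by 0.53 on the log2 scale in WT, in the opposite direction to Irf2bp2.

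Of 10 known IRF4 targets in T cells, 5 rose and 3 fell in WT with CMA, where 33.0% of all genes tested were higher and 37.4% were lower, so that the share called was near that over all genes. The list had Il10 (0.90) and Tbx21 (0.87) at the top and Maf (-1.29) and Ccr6 (-1.67) at the bottom, while Irf4 was at -0.03. In STINGgt/gt 2 rose and 1 fell, where 0.398% of all genes tested were higher and 0.920% were lower. Of these calls that of Bcl6 (0.34, adjusted p = 0.0429, edgeR) was lost with limma-voom (adjusted p = 0.0533). With DMSO, 9 of the 10 were higher in WT than in STINGgt/gt, against 22.9% of all genes tested, with a median log2 value of 1.98, against -0.00184 over all genes tested. Irf4 differed by 0.09 there. Il10 measured 3.50, 5.33 and 6.07 CPM in WT and 0.0934 to 0.155 CPM in STINGgt/gt. The marker sums given above differ between these same groups, and their part in this was not tested.

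**Figure D5:**
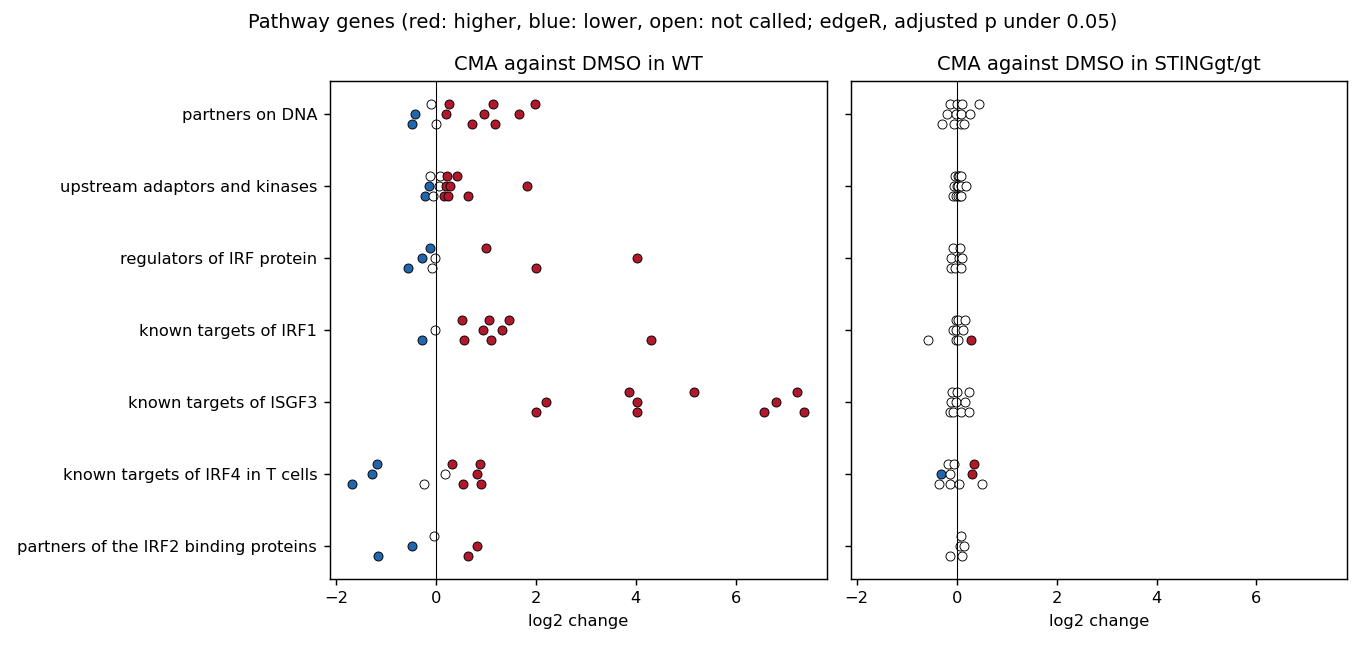
Fitted log2 change with CMA of each tested gene of 7 lists around the family (horizontal axis), in WT (left) and STINGgt/gt (right) T cells. Red points rose, blue points fell and open points were not called. All 10 ISGF3 targets lie at or to the right of 2.00 in WT and near 0 in STINGgt/gt.

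The genes whose pattern was most like that of each member were found by Pearson's r of log2 CPM over the 12 libraries, among 11190 genes. For most members the 3 WT libraries with CMA stand apart and set these values, so they are a description only. Irf7 was most like Phf11a, Mx1 and Ube2l6 (r = 0.998 for each), and Irf9 most like Ube2l6, Parp10 and BC051226 (r = 0.997, 0.996 and 0.995). Irf5 was most like Ttyh3, Gm11435 and Nfkbia, which encodes the NF-κB inhibitor IκBα (r = 0.999, 0.998 and 0.998). Nfkbia measured 142 to 161 CPM in WT with DMSO and 583 to 639 CPM with CMA. Irf2 was most like the GTPase genes Irgm1 and Tgtp1 (r = 0.996 for each) and Mapk14 (r = 0.991).

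Irf1 was most like Eme1, Fnbp4 and Parp8 (r = 0.986, 0.985 and 0.985), and Irf2bp2 most like Atat1, Inf2 and Lmbr1l (r = 0.986, 0.983 and 0.983). Irf8, the gene that fell in WT and was higher with CMA in STINGgt/gt, was most like Ddx11, Polr3e and Galm (r = 0.995, 0.995 and 0.994). Ddx11 shows this pattern: it measured 35.4 ± 0.813 and 25.1 ± 0.747 CPM in WT, and 44.4 ± 1.00 and 49.9 ± 1.62 CPM in STINGgt/gt, with DMSO and CMA respectively (SD, n = 3). The closest genes to Irf4 were Arl5a, Hipk1 and Zyg11b (r = 0.954, 0.931 and 0.927), and to Irf2bp1 they were Zfp282, Chaf1a and Gramd1b (r = 0.927, 0.925 and 0.922). These 2 members, which differ little between groups, had the weakest likeness.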

How the data were processed

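The authors deposited raw HTSeq counts of reads per Ensembl gene for each of the 12 libraries (38924 identifiers) and a table of normalised log2 expression values for 11921 genes, which holds all 9 genes. Per the submitters' processing notes the tools were cutadapt 1.3, STAR 2.4.0f1, HTSeq 0.6.1 and RSEM 1.2.16 with GRCm38, and the libraries came from a stranded mRNA kit. The reads counted on genes numbered 27414450 to 43784910 per library. Tally entries that name no gene were left out: non-unique alignments were 27.8% to 30.3% of the entries, reads outside genes 4.86% to 7.16% and ambiguous reads 0.594% to 0.635%.

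The deposited counts were tested with edgeR 4.0.16 (R 4.3.3): TMM scaling, filterByExpr by group, the 4 groups in 1 quasi-likelihood model without a block, and Benjamini-Hochberg adjustment over 13811 genes. In a simulation, counts of 13811 genes were drawn from each gene's mean over the 12 libraries, with changes set in WT with CMA alone. For CMA against DMSO in WT, edgeR recovered 194 of 200 changed genes and called 8 unchanged genes. Far more genes were called in the data (33.0% higher and 37.4% lower), so these rates need not hold there. Every pair of libraries within a group differed by more than the sampling noise (chi-square per degree of freedom 2.63 to 29.9). The members and lists were chosen with earlier results of these data known. From each list the 2 highest and 2 lowest log2 changes in WT decided which genes are named, and for each member the 3 genes with the highest Pearson's r (log2 CPM, prior count 2, mean count of at least 50). Alternatives were library-size scaling, DESeq2 1.42.0, limma 3.58.1 (voom, and the deposited log2 values), other filters and thresholds, replicate blocks and leaving out each library. Promoter windows are from RefSeq. Protein sequences were not used here, and not every gene of the family is reported.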

Additional observations from a re-analysis of the deposited data

Results flagged for a closer look

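For 7 of the 9 genes the direct test found unequal effects of CMA in the 2 genotypes (edgeR's quasi-likelihood test, n = 3 libraries per group). Of all genes tested, 27.2% were called above 0 and 31.6% below 0 by this test. The differences, WT minus STINGgt/gt on the log2 scale, were 5.90 for Irf7 (adjusted p = 7.16e-13), 2.94 for Irf5 (3.93e-14), 1.39 for Irf9 (8.31e-10), 0.68 for Irf1 (1.49e-07), 0.62 for Irf2 (2.41e-07), 0.57 for Irf2bp2 (2.43e-05) and -0.77 for Irf8 (2.01e-08). The Irf8 libraries with CMA all lay below those with DMSO in WT and all above them in STINGgt/gt.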

How the results depend on the processing

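No change in any of the 9 genes that had passed the threshold turned its direction in the alternatives tried. The counts in this section compare settings for the same 9 genes and are given without the share of all genes called under each setting. Requiring at least a 2-fold change left 3 called genes for CMA in WT, 0 in STINGgt/gt, 3 for the difference of the effects, 0 between genotypes under DMSO and 4 under CMA. The 2 calls in STINGgt/gt T cells became 1 at an adjusted p under 0.01, 0 with a replicate block by library name and 1 to 3 when single libraries were left out. The libraries were not treated as pairs by replicate number, since only 2 of the 6 same-numbered pairs had r over 0.1. However, 5 of the 6 DMSO libraries correlated best with their own number. Library names also share a first digit in every same-numbered pair except STINGgt/gt replicate 2. Both are hints of pairing and not a stated design. Same-numbered libraries deviated together with r = 0.00195, 0.104 and 0.132 (WT) and r = 0.0634, 0.0597 and 0.0585 (STINGgt/gt). Under the replicate block 8, 3, 7, 5 and 7 of the 9 genes were called in the order of the comparisons above (CMA in WT, CMA in STINGgt/gt, difference, genotype with DMSO, genotype with CMA), Irf2 in STINGgt/gt being the added one. With the block by library name the adjusted p of Irf1 in STINGgt/gt was 0.0887. Irf2bp1 was called between genotypes with CMA under library-size scaling alone (adjusted p = 0.0404), and Irf5 between genotypes with DMSO under that scaling and under a minimum of 10 counts in every library. The scalings shifted the median of all genes by at most 0.05 on the log2 scale. Irf7 rests on 185 to 388 reads per library in WT with DMSO, the fewest of the 9 genes, and had the widest interval.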
